A study of Mus musculus with 282 samples.

Results

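Kupffer cells are the resident macrophages of the liver, and 10 genes used to recognise them or macrophages in general were followed here across a set of mouse liver libraries. The genes were Clec4f, Adgre1, Csf1r, Timd4, Marco, Vsig4, Cd5l, C1qa, C1qb and C1qc. They were taken by symbol, and all 10 had a row in both deposited gene tables, which hold 15907 genes. All 10 also passed the filter on low values in both tables.

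Kupffer cells line the hepatic sinusoids, where they take up bacteria, dead cells and aged erythrocytes from portal blood. They depend on signalling through the CSF1 receptor, and in the mouse their surface carries the lectin Clec4f, which other macrophages lack. They are also a main source of C1q, the recognition subunit of the classical complement pathway, and they bind complement-coated particles through Vsig4.

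The study addressed how mTOR signalling, the clock and feeding shape daily gene expression in liver. All mice were male C57BL/6J, kept singly in 12 h of light and 12 h of dark. The 3 arms given tunicamycin, an inhibitor of N-glycosylation that causes endoplasmic reticulum stress, were arrhythmically fed with AZD8055 injected at dusk, arrhythmically fed, or night-fed, all WT. Knockout arms were a liver-specific Raptor knockout (RPKO) and a liver-specific Tsc1 knockout (TSKO), both set against Albumin-Cre mice (AC). Whole-body Bmal1 knockout mice (BMKO) received rapamycin, vehicle or no injection. WT mice received rapamycin, vehicle or no injection under night feeding (NF), and AZD8055 at dusk, AZD8055 at dawn or no injection under arrhythmic feeding (AF), and 1 uninjected WT arm was fed ad libitum (LB). Knockout, AC and rapamycin or vehicle arms were all night-fed. Albumin-Cre acts in hepatocytes, so Kupffer cells of RPKO and TSKO mice keep both genes, whereas BMKO mice lack Bmal1 in every cell. Tunicamycin arms had 4 livers at each of ZT 4, 10, 16 and 22 (16 per arm), and the other 13 arms had 3 livers at each of ZT 2, 6, 10, 14, 18 and 22 (18 per arm), where ZT counts hours from lights on. The labels give neither doses nor hours of injection.

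RNA of a whole liver lobe was sequenced from the 3′ end of transcripts, and levels are given as RPM, the reads of a gene per 1e+06 reads after libraries were rescaled to a common size. Libraries held 4.85 to 10.1 M reads (1e+06 reads) in the tunicamycin table and 0.706 to 14.3 M reads in the other. One WT rapamycin library, at ZT 22, was the shallowest and stood apart from its group, as did 6 others (1 BMKO uninjected library at ZT 6, 2 BMKO vehicle libraries, 1 BMKO rapamycin library, 1 AC library and 1 tunicamycin library). Tsc1 averaged 7.22 ± 1.54 RPM in TSKO livers and 14.8 ± 2.72 RPM in AC livers, and Rptor averaged 5.14 ± 1.73 RPM in RPKO livers and 8.97 ± 1.5 RPM in AC livers (SD between livers of the same time, n = 18 each). Arntl, which encodes Bmal1, still gave 5.98 to 16.4 RPM in uninjected BMKO livers, against 0.18 to 26.4 RPM in uninjected night-fed WT livers, so its 3′ reads do not check that label.

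On mouse build GRCm38 all 10 genes are annotated as protein coding. C1qb (chr4:136880129-136886187), C1qc (chr4:136889804-136893065) and C1qa (chr4:136895917-136898803) lie side by side on the minus strand within 18.7 kb. Vsig4 lies on the minus strand at chrX:96247203-96293438, Marco on the minus strand at chr1:120474538-120505024 and Cd5l on the plus strand at chr3:87357881-87371073. Clec4f (chr6:83644542-83656187, minus strand), Timd4 (chr11:46810800-46844332, plus strand) and Adgre1 (chr17:57358691-57483527, plus strand) overlap no other annotated gene. The remaining gene, Csf1r, is placed where it is described.

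Upstream stretches of Vsig4, Marco, C1qc and C1qb are shown because these genes carried many of the differences described below. RefSeq promoters of build GRCm38.p6 were matched for 7 of the 10 genes (not for C1qa, Adgre1 and Csf1r). Capitals mark GAGGAA, or TTCCTC where it lies on the opposite strand, the core letters bound by the macrophage factor Spi1. The stretches run 5′ to 3′ on the gene's strand, at chrX:96293439-96293688, chr1:120505025-120505274, chr4:136893066-136893164 and chr4:136886201-136886450, all on the minus strand. Those of Vsig4, Marco and C1qc end directly before the annotated gene. That of C1qb ends at 136886201, a few bases before the annotated start at 136886187.
Vsig4: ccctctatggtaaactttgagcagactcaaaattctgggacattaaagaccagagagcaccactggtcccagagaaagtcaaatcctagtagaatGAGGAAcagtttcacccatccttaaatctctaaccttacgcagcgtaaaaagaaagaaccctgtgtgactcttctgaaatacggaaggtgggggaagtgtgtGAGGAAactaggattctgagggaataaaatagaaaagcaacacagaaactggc
Marco: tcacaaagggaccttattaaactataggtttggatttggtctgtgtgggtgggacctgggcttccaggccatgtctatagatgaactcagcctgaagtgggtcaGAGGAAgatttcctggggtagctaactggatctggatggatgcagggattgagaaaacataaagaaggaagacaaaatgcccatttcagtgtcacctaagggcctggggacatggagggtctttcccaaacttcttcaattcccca
C1qc: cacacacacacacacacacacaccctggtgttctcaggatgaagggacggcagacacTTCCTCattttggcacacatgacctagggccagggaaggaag
C1qb: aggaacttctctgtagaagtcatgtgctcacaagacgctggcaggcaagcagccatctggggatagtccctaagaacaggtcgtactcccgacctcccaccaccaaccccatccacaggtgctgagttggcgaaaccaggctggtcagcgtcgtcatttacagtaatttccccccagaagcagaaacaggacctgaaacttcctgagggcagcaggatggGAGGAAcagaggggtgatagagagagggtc
These letters occurred within the 250 upstream bases of 5 of the 7 genes (Vsig4, Marco, Cd5l, C1qb and C1qc), against 23.3% of 32851 promoters searched on both strands. The search covered the 250 bases before the RefSeq start, of which the stretch shown for C1qc is the 99 that also lie outside the annotated gene. Vsig4 held 2 copies. The E-box CACGTG, which is the same on both strands and is bound by Bmal1, occurred in 0 of the 7 and in 6.02% of all promoters. The motifs do not overlap each other, and a match or its absence describes only these windows.

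Levels differed between arms to different degrees from gene to gene, and the spans given are over the 13 arms without tunicamycin. Clec4f had the narrowest, with arm means of 22.5 RPM in uninjected BMKO livers to 30.1 RPM with AZD8055 at dusk, a 1.34-fold span. C1qb and C1qc spanned 1.66-fold and 1.75-fold, and Csf1r 1.97-fold. Cd5l, a secreted scavenger protein of tissue macrophages, spanned 2.26-fold, with arm means of 43.1 to 97.6 RPM. Timd4, a receptor for phosphatidylserine on dying cells, had arm means of 1.85 to 4.38 RPM, and Adgre1, Timd4 and C1qa spanned 2.35-fold to 2.54-fold. Vsig4, the complement receptor, spanned 3.62-fold, from 9.36 RPM in uninjected BMKO livers to 33.9 RPM with AZD8055. Marco, a scavenger receptor for bacteria and particles, spanned 11.7-fold, from 0.784 RPM in BMKO livers with rapamycin to 9.14 RPM under ad libitum feeding, where 1 liver held 89.2 RPM and the median was 2.19 RPM. When arms were ordered by their mean, neighbours lay within the spread of livers for every gene, except that Vsig4 in uninjected BMKO livers lay below the next arm. Uninjected BMKO livers were the lowest of all arms for Clec4f, Adgre1, Cd5l, Vsig4, Timd4 and C1qc, but not for C1qa, C1qb, Csf1r or Marco.

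**Figure D1:**
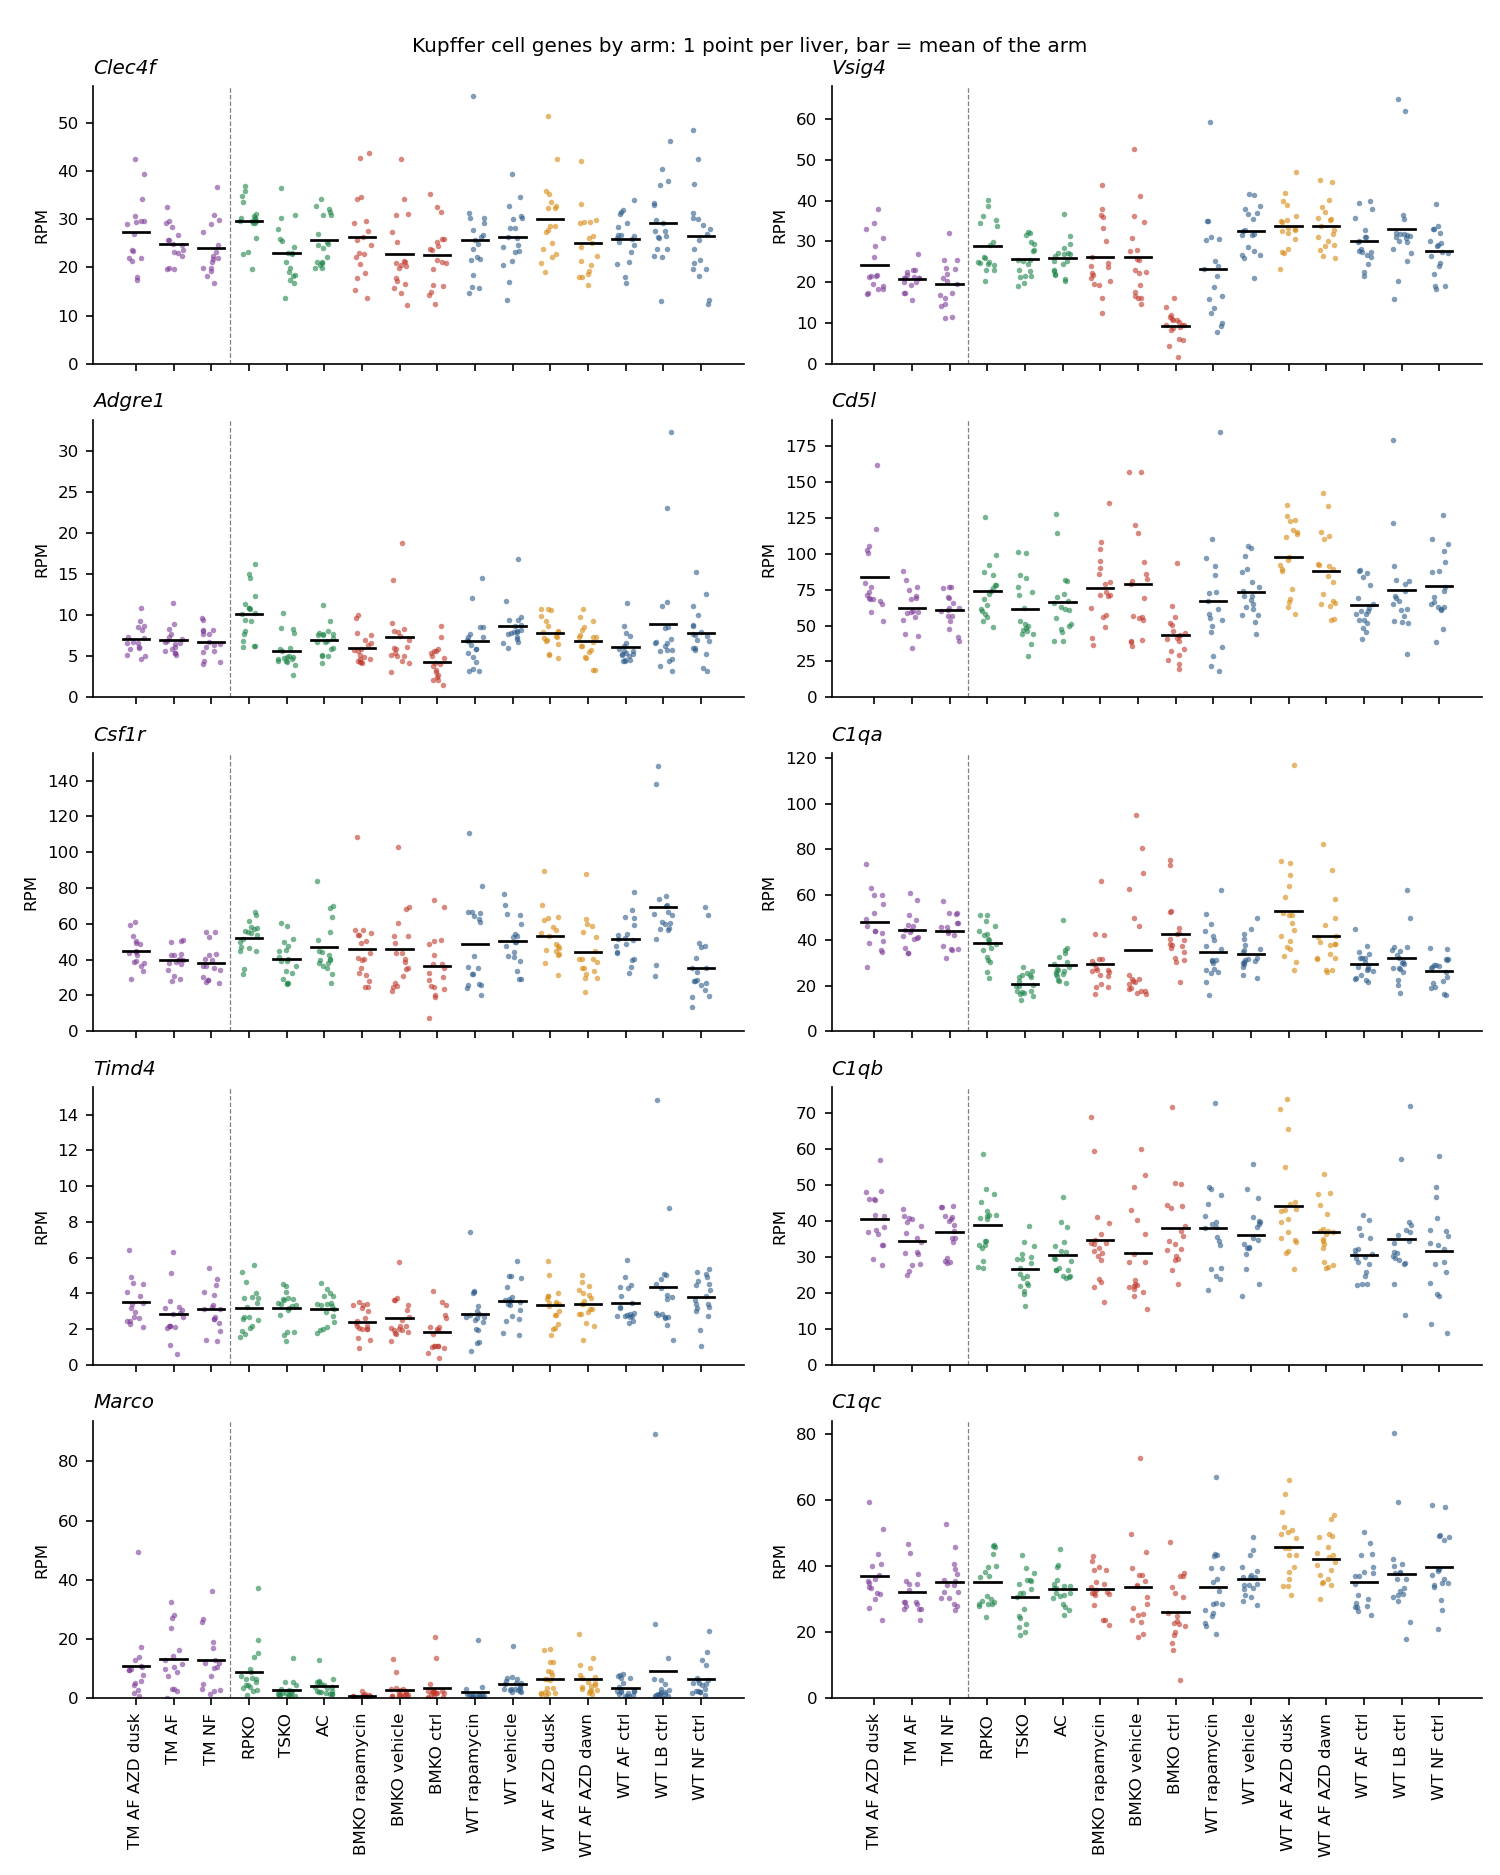
Level of each of the 10 genes (RPM, linear axes from 0) by arm, with 1 point per liver (16 per tunicamycin arm left of the dashed line, 18 per other arm) and a bar at the arm's mean; the table left of the dashed line was normalised separately. Uninjected BMKO livers (BMKO ctrl) sit between 1.61 and 16.2 RPM for Vsig4, the lowest being the ZT 6 library that stood apart. All lie below every uninjected night-fed WT liver (WT NF ctrl, 18.3 to 39.2 RPM).

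Livers of the same arm and time differed in these genes together. Over the 234 libraries of the larger table, each taken as its deviation from its arm and time mean, the 45 pairs of genes had correlations of 0.33 to 0.81 (median 0.60), and none was below 0. Clec4f with C1qb was the tightest pair (r = 0.81), and C1qa with C1qb (0.74) was tighter than C1qa with C1qc (0.53). The 10 other genes closest to the mean of the Kupffer genes, of 8648 compared, were Lyz2 (r = 0.82), Cfp (0.82), Ifi30 (0.75), Tyrobp, Rac2, Fcer1g, Ctss, Aif1, Wfdc17 and Cd68 (0.69). Lyz2 encodes lysozyme, Ctss the lysosomal protease cathepsin S, and Tyrobp and Fcer1g adaptors of myeloid receptors. All these points share library depth and scaling with one another, and the correlations are given as a description. The median r to the same mean was 0.65 over 14 pan-macrophage genes, 0.54 over 3 dendritic cell genes, 0.53 over 12 other Kupffer cell genes and 0.45 over 7 early complement genes. It was 0.25 over 9 sinusoidal endothelial genes, 0.13 over 8 stellate cell genes and 0.09 over 9 hepatocyte genes.

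Libraries of the larger table were ranked by the mean log2 deviation of the 10 genes. Sums in RPM are given beside this ranking and do not follow it in every library. The highest by mean log2 deviation was 1 ad libitum liver at ZT 18. There the 10 genes summed to 783 RPM and all 10 lay above their table mean. Next by this measure were 1 WT rapamycin liver at ZT 14 (sum 654 RPM) and another ad libitum liver at ZT 22 (sum 592 RPM). The lowest by this measure was 1 uninjected BMKO liver at ZT 18, with a sum of 120 RPM and 0 of the 10 above their mean. Over the 78 arm and time means the pairs were looser, with a median r of 0.51. There C1qa still followed C1qb (r = 0.86) but hardly Vsig4 (0.04), whereas Vsig4 followed C1qc (0.80). Tyrobp (0.81), Lyz2 (0.80) and Axl (0.79), a receptor for dying cells, were closest to the mean of the Kupffer genes over these 78 points, and 7 of the 10 closest genes, 70% of each list, were shared between both rankings. Over the 48 tunicamycin libraries, taken as deviations from their arm and time mean, pairs had an r of 0.14 to 0.79 (median 0.53). Over the 12 arm and time means of tunicamycin livers r was -0.77 to 0.91 (median 0.29), and 10 of the 45 pairs lay below 0.

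In uninjected night-fed livers, BMKO differed from WT in 7 of the 10 genes: 6 were lower and C1qa was higher. Vsig4, Marco, Timd4, Cd5l, Adgre1 and C1qc were the lower ones, while Clec4f, Csf1r and C1qb did not pass the threshold. This comparison called 72.6% of all genes (31.8% higher and 40.8% lower), so the count of 7 is near the background. The median log2 difference was -0.74 over the 10 genes and -0.12 over all genes tested. In RNA of whole liver, fewer macrophages and less of a transcript per macrophage cannot be told apart.

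Vsig4 had 1.61, 9.53 and 16.2 RPM as lowest, median and highest value in uninjected BMKO livers, against 18.3, 28.1 and 39.2 RPM in uninjected WT livers. The value of 1.61 RPM came from the BMKO library at ZT 6 that stood apart. No BMKO liver reached the lowest WT liver in Vsig4, though how many of all genes separate these arms was not tested. The log2 difference was -1.60 (SE 0.18, limma adjusted p = 3.17e-12), and the BMKO mean was lower at all 6 times. At single times Vsig4 also passed at each of the 6, with differences of -1.20 to -2.03 on the log2 scale. The calls at ZT 6 and ZT 22 were kept under all 13 alternatives. Those at ZT 2, 10 and 14 were lost without livers numbered 2 or 3, and that at ZT 18 without livers numbered 2.

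Cd5l had 19.5, 41.9 and 93.7 RPM in BMKO livers and 38.4, 72.1 and 127 RPM in WT livers. The ranges overlapped, and Cd5l differed by -0.88 on the log2 scale (SE 0.19, limma adjusted p = 2.63e-05). Timd4 averaged 1.85 ± 0.93 RPM in BMKO livers and 3.77 ± 1.13 RPM in WT livers (log2 difference -0.94, SE 0.17, limma adjusted p = 1.07e-06). Adgre1, which encodes the macrophage surface protein F4/80, averaged 4.32 ± 1.49 RPM in BMKO livers and 7.83 ± 3.12 RPM in WT livers (-0.81, SE 0.16, limma adjusted p = 6.41e-06). Cd5l, Timd4 and Adgre1 were each lower in BMKO at all 6 times. Marco ranged from 0 to 20.7 RPM in BMKO livers and from 0.995 to 22.8 RPM in WT livers, with medians of 1.99 RPM in BMKO and 5.0 RPM in WT livers. It passed the test at -1.11 (SE 0.33, limma adjusted p = 0.00245), lower at 5 of the 6 times.

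**Figure D2:**
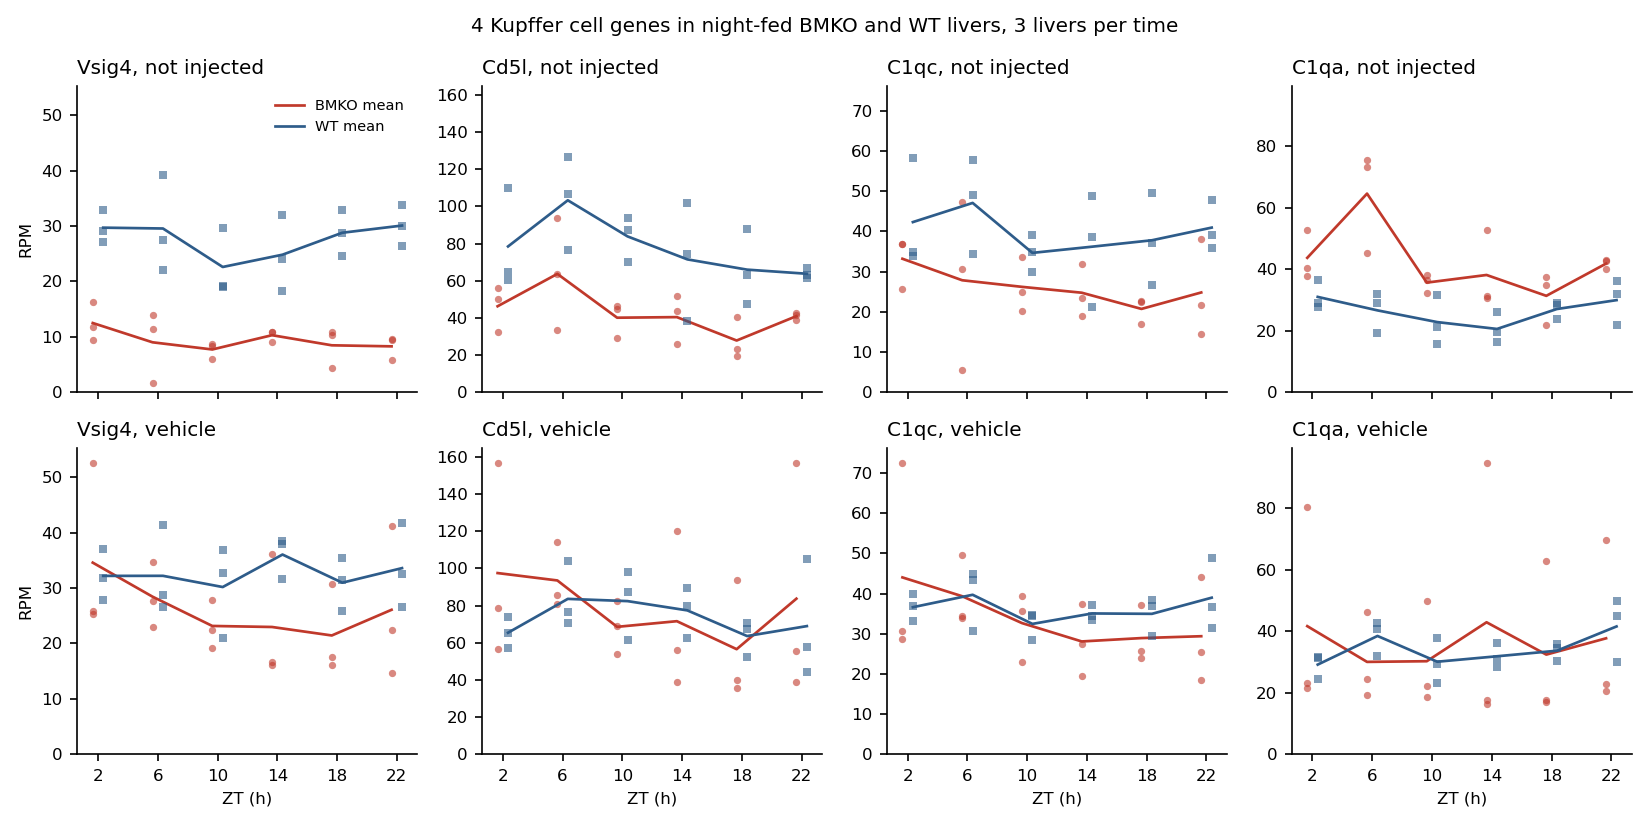
Vsig4, Cd5l, C1qc and C1qa (RPM) against ZT in hours, in BMKO livers (circles) and WT livers (squares), uninjected above and vehicle-injected below, with 1 point per liver and lines through the means of 3. Uninjected BMKO livers lie below WT livers for Vsig4 and their means lie above WT for C1qa at all 6 times, and with vehicle 1 BMKO liver per time stands high in C1qa.

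The chains of C1q moved in opposite directions in the same livers. C1qa had 21.6, 39.1 and 75.3 RPM as lowest, median and highest value in uninjected BMKO livers, against 15.8, 27.9 and 36.4 RPM in uninjected WT livers. It was higher in BMKO at all 6 times, by 0.66 on the log2 scale (SE 0.18, limma adjusted p = 0.000603). C1qc had 5.47, 24.1 and 47.3 RPM in BMKO livers and 21.1, 37.9 and 58.4 RPM in WT livers. It was lower at all 6 times, and differed by -0.67 (SE 0.15, limma adjusted p = 6.4e-05). C1qb lay between its partners, at 0.35 (95% interval 0.01 to 0.68, limma adjusted p = 0.0611). The log2 ratio of C1qa to C1qc within a liver had a median of 0.63 in uninjected BMKO livers and -0.57 in uninjected WT livers. The lowest BMKO value, 0.03, lay above the highest WT value, -0.17, so the arms did not overlap in this ratio. These medians were the highest and the lowest of the 16 arms. C1qa and C1qc were already called in opposite directions in these livers. How many other pairs of genes separate the arms by their ratio was not tested. The highest ratio, 3.78, came from the BMKO library at ZT 6 that stood apart. The same library held the 75.3 RPM of C1qa and the 5.47 RPM of C1qc. All 7 calls of this comparison were kept without it.

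**Figure D3:**
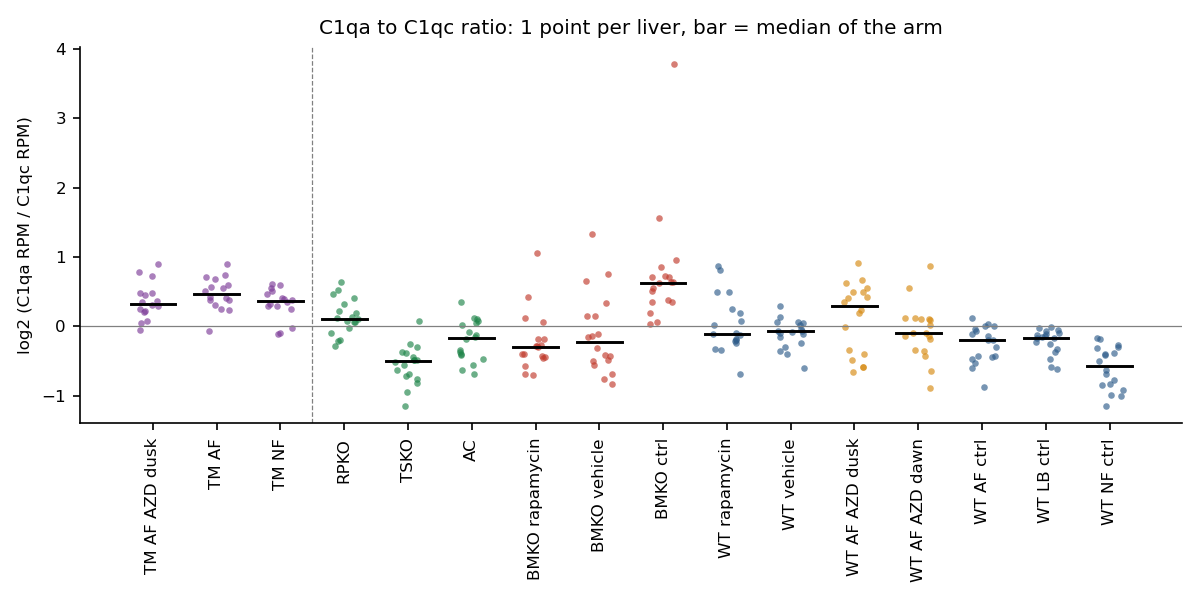
Log2 ratio of C1qa to C1qc by arm, with 1 point per liver and a bar at the arm's median; tunicamycin arms are left of the dashed line. Uninjected BMKO livers (median 0.63) lie above all uninjected night-fed WT livers (median -0.57), while with vehicle the medians are -0.23 in BMKO and -0.07 in WT. How many other pairs of genes separate the uninjected arms was not tested.

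Clec4f averaged 22.5 ± 5.33 RPM in uninjected BMKO livers and 26.6 ± 10.5 RPM in WT livers, a log2 difference of -0.21 with a 95% interval of -0.50 to 0.08. Csf1r, the receptor for Csf1 and Il34, differed by 0.01 with an interval of -0.40 to 0.42. Neither interval reaches the size of the Vsig4 difference. Of its ligands, Il34 was higher in uninjected BMKO livers, at 3.21 ± 1.35 RPM against 1.61 ± 0.784 RPM in WT livers (log2 difference 0.76, limma adjusted p = 5.47e-05).

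Genes beyond these 10 moved in the same comparison. Of 16 other Kupffer cell genes 3 rose and 10 fell, with a median of -0.52, including Slc40a1, the iron exporter (25.05 ± 4.12 RPM in BMKO and 70.7 ± 11.8 RPM in WT livers), and Cd38, an NAD-consuming ectoenzyme (3.47 ± 1.49 RPM in BMKO and 11.7 ± 2.42 RPM in WT livers). Of 17 pan-macrophage genes 2 rose and 10 fell, among them Ctss at 16.7 ± 3.48 RPM in BMKO and 39.8 ± 10.8 RPM in WT livers. Of 7 monocyte and recruited macrophage genes 1 rose and 5 fell. The 1 that rose, Cx3cr1, the fractalkine receptor, averaged 6.80 ± 2.98 RPM in BMKO and 0.445 ± 0.344 RPM in WT livers (log2 difference 2.96, limma adjusted p = 1.59e-23), while Ccr2 fell by 1.15 on the log2 scale. Sinusoidal endothelial genes fell in 5 and rose in 3 of 10, and the sum of the 10 was 179 to 305 RPM in BMKO and 240 to 365 RPM in WT livers. Of that list, Fcgr2b fell by 2.15 on the log2 scale. Hepatocyte genes went both ways, with 3 of 9 higher and 4 lower (median -0.18), and Alb, one of those that fell, was at 13211 ± 3306 RPM in BMKO and 51119 ± 3695 RPM in WT livers. Reads from mitochondrial genes made up a median of 7.86% in uninjected BMKO and 15.0% in uninjected WT livers. The part of these differences in the results for the Kupffer genes was not tested.

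With vehicle injected, fewer of these genes were called between BMKO and WT, although all 10 log2 differences lay below 0 (-0.94 to -0.01, median -0.26). Only Marco passed the threshold, at 2.79 ± 3.15 RPM in BMKO and 4.92 ± 3.78 RPM in WT livers (log2 difference -0.94, SE 0.33, limma adjusted p = 0.0324), where 21.8% of all genes were called. That call was lost without livers numbered 2 or 3, with a pseudocount of 0.1 and under the deposited scaling. Vsig4 had 14.7, 24.2 and 52.7 RPM in BMKO livers and 20.97, 32.2 and 41.7 RPM in WT livers given vehicle, and did not pass (-0.38). C1qa had 16.2, 22.5 and 94.8 RPM in BMKO livers and 23.2, 31.9 and 49.7 RPM in WT livers given vehicle. In BMKO livers given vehicle, the 6 livers numbered 1 carried 46.3 to 94.8 RPM of C1qa and the other 12 carried 16.2 to 24.5 RPM. Livers of the same number at different times also deviated together over all genes in this arm (median r = 0.51 over 45 pairs), and 2 of the livers numbered 1 stood apart. In the other 15 arms this median was -0.01 to 0.29, the highest in uninjected night-fed WT livers, while the tests treat the livers of an arm as independent. Without all livers numbered 1, in both genotypes, 8 of the 10 genes were called, all lower in BMKO, from -1.37 for Marco to -0.39 for Clec4f, with C1qa at -0.67 and Vsig4 at -0.62. Without the libraries that stood apart 5 genes were called.

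The difference between the 2 genotype comparisons was tested itself. With 58% of all genes called, 6 of the 10 passed: Vsig4 (1.22, SE 0.26, limma adjusted p = 4.97e-05), Cd5l (0.86), Timd4 (0.55), C1qc (0.50), C1qb (-0.63) and C1qa (-0.84), where a positive value means that BMKO lay higher relative to WT with vehicle than without injection. Vsig4 and Cd5l were called under all 14 alternatives, whereas Timd4 and C1qc were each lost under 5, C1qb under 4 (edgeR and DESeq2 included) and C1qa under 3. Leaving out a replicate number left 2 to 4 calls. In BMKO livers, vehicle against no injection called 5 genes higher and 1 lower, with 61.5% of all genes called (34.9% higher and 26.6% lower). Vsig4 was 1.46 higher on the log2 scale (SE 0.18, limma adjusted p = 1.7e-10), followed by Cd5l (0.80), Adgre1 (0.68), Timd4 (0.49) and C1qc (0.40), and C1qa fell by 0.45. The calls of Vsig4, Cd5l and Adgre1 were kept under all 14 alternatives. Timd4 and C1qc were each lost under 3, also without the libraries that stood apart, and C1qa under 5, edgeR and DESeq2 included, with values of -0.90 to -0.16. These BMKO livers also differed in mitochondrial reads (median 14.2% with vehicle and 7.86% without injection), in pan-macrophage genes (7 higher and 1 lower of 17) and in sinusoidal endothelial genes (6 higher and 2 lower of 10). The part of these differences in the result was not tested. In WT livers vehicle against no injection called 1 gene, Csf1r, at 50.2 ± 13.1 RPM with vehicle and 35.2 ± 16.4 RPM without (0.58, SE 0.21, limma adjusted p = 0.0305), where 27.3% of all genes were called; the call was lost in edgeR's quasi-likelihood test, under the deposited scaling and without livers numbered 1 or 2.

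Cx3cr1 stayed apart between genotypes with vehicle, at 7.64 ± 3.29 RPM in BMKO and 0.913 ± 0.486 RPM in WT livers (log2 difference 2.54, limma adjusted p = 2.41e-19). So did Mpeg1, which encodes the pore-forming protein perforin-2, at 29.0 ± 10.2 RPM in BMKO and 12.8 ± 5.11 RPM in WT livers.

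**Figure D4:**
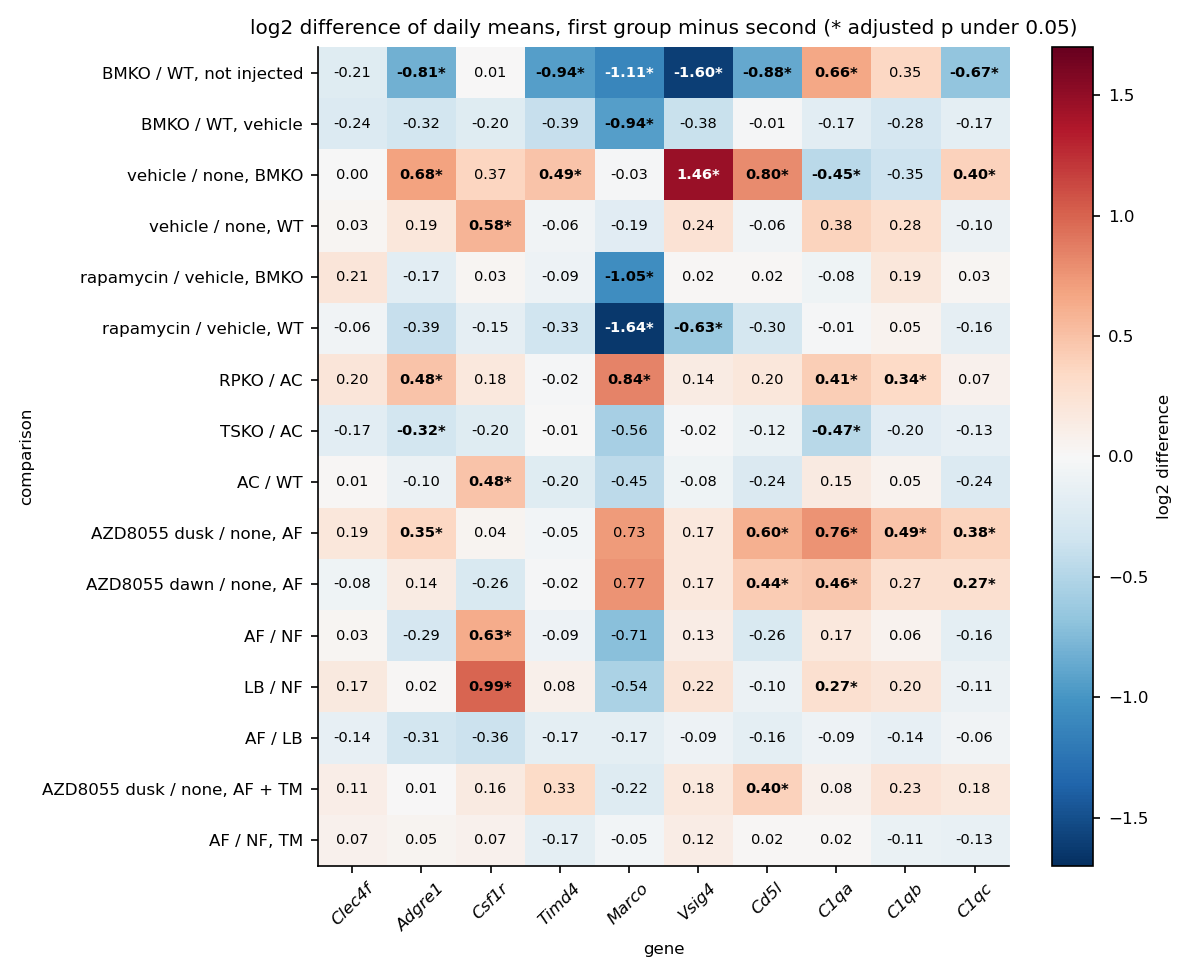
Log2 difference of daily means for the 10 genes (columns) in 16 comparisons (rows, first group minus second), coloured on a scale centred at 0, with * for an adjusted p under 0.05 in limma. Uninjected BMKO against WT and vehicle against none in BMKO hold the most calls (7 and 6), and Clec4f has none in any row.

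Read against all genes, the share of the 10 genes called in either direction was close to or below the background in each of the 16 comparisons. This share exceeded the background only for rapamycin in WT livers, with 2 of 10, and for AZD8055 under tunicamycin, with 1 of 10, and in both by little. By direction, uninjected BMKO livers had 6 of 10 lower (40.8% of all genes) and 1 higher (31.8%). RPKO livers had 4 higher (19.5%) and 0 lower (22.8%). AZD8055 at dusk had 5 higher (27.1%) and 0 lower (23.8%). Whether these shares by direction differ from those of all genes was not tested. Clec4f was called in none of these comparisons, and its log2 difference never exceeded 0.24 in size, although some alternatives called it: 5 of 14 for RPKO, 2 for AZD8055 at dusk, and 1 each for BMKO against WT uninjected (where values reached -0.47) and with vehicle (-0.39), for TSKO and for ad libitum feeding.

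Rapamycin, which inhibits mTOR complex 1, left most of these genes within the spread of livers, and Marco fell. In WT livers Marco had 0, 0.953 and 19.6 RPM as lowest, median and highest value with rapamycin, against 2.06, 3.84 and 17.6 RPM with vehicle. In 2 rapamycin livers no read of Marco was counted, and 1 lay above every vehicle liver. The log2 difference was -1.64 (SE 0.33, limma adjusted p = 0.000227), lower at 5 of the 6 times. Vsig4 averaged 23.3 ± 13.5 RPM with rapamycin and 32.5 ± 6.44 RPM with vehicle (-0.63, SE 0.18, limma adjusted p = 0.0105), but without the livers numbered 1 it was -0.23 and did not pass. These were the only 2 of the 10 called, and 18.9% of all genes were. In BMKO livers Marco was called alone, where 11.9% of all genes were. It had 0.118 to 2.37 RPM with rapamycin and 0.673 to 13.3 RPM with vehicle, so the ranges overlapped (-1.05, SE 0.33, limma adjusted p = 0.0268), and the call was lost under 4 of 14 alternatives. The rapamycin response was not shown to differ between genotypes for any of the 10 genes in limma (0 called and 1 with an unadjusted p under 0.05; 0 in edgeR and 0 in DESeq2), where 14.7% of all genes did. Among other genes in WT livers, 3 of 17 pan-macrophage genes, 5 of 10 sinusoidal endothelial genes and both neutrophil genes fell with rapamycin, and 0 of these rose. Their part in the falls of Marco and Vsig4 was not tested. The ligand Csf1 rose to 5.51 ± 2.24 RPM, against 3.42 ± 1.66 RPM with vehicle.

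Loss of Raptor, the defining subunit of mTOR complex 1, and loss of Tsc1, which restrains that complex, were both restricted to hepatocytes and are set against the same AC livers. In RPKO livers 4 of the 10 genes rose and 0 fell, where 42.3% of all genes were called (19.5% higher and 22.8% lower). Adgre1 had 6.09, 10.2 and 16.2 RPM as lowest, median and highest value in RPKO livers, against 4.24, 7.03 and 11.2 RPM in AC livers (log2 difference 0.48, SE 0.11, limma adjusted p = 0.000404). C1qa had 23.5, 39.4 and 51.2 RPM in RPKO livers and 21.1, 27.2 and 48.8 RPM in AC livers (0.41, SE 0.09, limma adjusted p = 0.000139). Both ranges overlapped with those of AC livers. C1qb rose by 0.34 and Marco by 0.84 (1.23 to 37.2 RPM in RPKO and 1.35 to 13.1 RPM in AC livers). Adgre1 was called under all 14 alternatives, whereas C1qa and C1qb were lost without the livers numbered 1 and under the deposited scaling, and Marco without the livers numbered 1 and in 1 fit over all arms. Beside them 10 of 17 pan-macrophage genes rose and 1 fell, including Fcer1g at 18.4 ± 3.02 RPM in RPKO and 11.6 ± 1.72 RPM in AC livers, and 4 of 7 monocyte and recruited macrophage genes rose. Mitochondrial reads made up a median of 26.5% in RPKO and 17.2% in AC livers, and their part in the result was not tested.

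In TSKO livers 2 of the 10 genes fell and 0 rose, where 36.2% of all genes were called (19% lower). C1qa had 13.9, 20.1 and 28.2 RPM in TSKO livers and 21.1, 27.2 and 48.8 RPM in AC livers. It was lower at all 6 times, and differed by -0.47 (SE 0.09, limma adjusted p = 2.81e-05), and was called under all 14 alternatives. Adgre1 averaged 5.62 ± 1.73 RPM in TSKO and 7.0 ± 1.48 RPM in AC livers (-0.32, SE 0.11, limma adjusted p = 0.0213), a call lost without livers numbered 2 or 3 and in 1 fit over all arms. The log2 ratio of C1qa to C1qc had medians of 0.11 in RPKO, -0.50 in TSKO and -0.16 in AC livers. Of the other Kupffer cell genes 1 rose and 3 of 16 fell in TSKO, with Fcgr4, an Fc receptor, at 2.59 ± 0.641 RPM in TSKO and 4.86 ± 1.38 RPM in AC livers. Early complement genes went both ways in TSKO, with 3 of 7 higher and 3 lower (median 0.22); C3, the complement protein that Vsig4 binds in cleaved form, fell by 0.74 on the log2 scale.

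AZD8055, which blocks the kinase of both mTOR complexes, was given to arrhythmically fed mice at dusk or at dawn. Both arms share the same uninjected controls. No arrhythmically fed arm is labelled as given vehicle, so effects of AZD8055 and of the injection itself cannot be told apart. Under night feeding, vehicle against no injection in WT livers called 27.3% of all genes and 1 of the 10. With dusk injection 5 of the 10 genes rose and 0 fell, where 27.1% of all genes were higher and 50.9% called. C1qa had 27.0, 49.3 and 117 RPM as lowest, median and highest value with AZD8055 at dusk, against 21.7, 28.1 and 44.7 RPM uninjected (log2 difference 0.76, limma adjusted p = 3.79e-05). Cd5l had 57.7, 96.9 and 134 RPM with AZD8055 at dusk, against 40.8, 60.1 and 88.5 RPM uninjected (0.60, limma adjusted p = 6.72e-05). The upper part of each treated range lay above every control liver. C1qb (0.49), C1qc (0.38) and Adgre1 (0.35) rose as well; the 3 C1q chains and Cd5l were called under all 14 alternatives, and Adgre1 was lost without the livers numbered 1. With dawn injection 3 rose and 0 fell, where 41.1% of all genes were called (21.2% higher): C1qa (0.46), Cd5l (0.44) and C1qc (0.27). All 3 dawn calls were lost without some replicate number: C1qa without 1 or 3, Cd5l without 3, and C1qc without 2 or 3 and also in 1 fit over all arms. Cd5l averaged 88.0 ± 25.9 RPM with AZD8055 at dawn and 64.0 ± 15.1 RPM uninjected. No test compared dusk with dawn injection directly.

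Early complement genes moved beside them, with 6 of 7 higher and 0 lower at dusk, led by C3 at 3984 ± 859 RPM with AZD8055 and 1482 ± 299 RPM uninjected. The neutrophil genes S100a8 and S100a9, the 2 of that list in the tables, rose at dusk and at dawn. At dusk their sum ran up to 129.5 RPM in 1 treated liver with a median of 3.9 RPM over the treated arm, against a highest sum of 4.0 RPM uninjected. Of 16 other Kupffer cell genes 6 rose and 1 fell. The one that fell, Hpgd, a prostaglandin-degrading enzyme, averaged 32.7 ± 7.43 RPM with AZD8055 and 68.3 ± 9.60 RPM uninjected. Sinusoidal endothelial genes were higher in 5 and lower in 2 of 10 at dusk and at dawn alike. All 3 dendritic cell genes tested fell at both times of injection, and erythroid genes fell in 3 of 5 at dusk and in 5 of 5 at dawn. The median share of mitochondrial reads was 11.9% with AZD8055 at dusk, 12.7% at dawn and 18.5% uninjected. The part of these differences in the result was not tested.

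Feeding schedule in uninjected WT livers touched Csf1r above all. This gene lies on the plus strand at chr18:61100598-61132149 and is overlapped by Hmgxb3 on the minus strand and by a microRNA gene. The sources used here do not say whether strand was used in counting, so its reads cannot be told apart from those of Hmgxb3. Csf1r had 30.9, 63.2 and 148 RPM as lowest, median and highest value under ad libitum feeding, 32.3, 51.1 and 77.9 RPM under arrhythmic feeding and 13.5, 30.7 and 69.2 RPM under night feeding. Ad libitum against night feeding gave 0.99 on the log2 scale (SE 0.15, limma adjusted p = 7.05e-07), higher at all 6 times and called under all 15 alternatives. Arrhythmic against night feeding gave 0.63 (SE 0.15, limma adjusted p = 0.000919), a call lost without the livers numbered 2. Both comparisons use the same night-fed livers, the lowest arm for Csf1r of all 16, and so does AC against WT, where Csf1r was again the 1 gene called (47.2 ± 13.6 RPM in AC and 35.2 ± 16.4 RPM in WT livers; 0.48, limma adjusted p = 0.0193, lost without livers numbered 1 or 2). All genes called made up 52.7%, 43.9% and 35.2% in these 3 comparisons, against 2, 1 and 1 of the 10. Beside these calls, the median share of mitochondrial reads was 20.2% under ad libitum, 18.5% under arrhythmic and 15.0% under night feeding. Pan-macrophage genes were higher in 7 and lower in 0 of 17 under ad libitum feeding, and higher in 3 and lower in 0 under arrhythmic feeding, both against night feeding. Sinusoidal endothelial genes were higher in 1 and lower in 4 of 10 under ad libitum feeding, and higher in 1 and lower in 5 under arrhythmic feeding. The part of these differences in the result was not tested. The second gene for ad libitum feeding was C1qa (0.27, limma adjusted p = 0.0384), whose call was lost under 4 alternatives. The other Kupffer cell genes were evenly split under ad libitum feeding, with 4 of 16 higher and 4 lower. Of these, Cd163, the receptor for haemoglobin bound to haptoglobin, rose, at 14.8 ± 3.45 RPM against 7.54 ± 2.97 RPM under night feeding. Id3, a transcription regulator, fell to 103 ± 40.6 RPM, against 219 ± 89.9 RPM under night feeding. Arrhythmic against ad libitum feeding called 0 of the 10 in limma (1 with an unadjusted p under 0.05; 0 in edgeR and 0 in DESeq2) and 8.6% of all genes.

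Under tunicamycin the feeding schedules and AZD8055 differed little in these genes. Arrhythmic against night feeding called 0 of the 10 in limma (0 with an unadjusted p under 0.05; 0 in edgeR and 0 in DESeq2), and 0.555% of all genes. AZD8055 at dusk called 1 gene, Cd5l, at 83.7 ± 26.8 RPM with AZD8055 and 62.5 ± 12.0 RPM without (log2 difference 0.40, SE 0.11, limma adjusted p = 0.0148), where 8.85% of all genes were called; the call was lost without livers numbered 2 or 3. C1qa averaged 47.9, 44.5 and 44.1 RPM in the arms with AZD8055, arrhythmic feeding and night feeding under tunicamycin, and Vsig4 24.2, 20.7 and 19.6 RPM. Tunicamycin and untreated livers are in separately normalised tables and share only ZT 10 and 22, so their values are set side by side without a test. All-day means of C1qa were 44.5 and 44.1 RPM in arrhythmically and night-fed tunicamycin livers, against 29.4 and 26.3 RPM in untreated ones. Other genes lay the other way. In the same order, Vsig4 had 20.7 and 19.6 RPM against 30.0 and 27.6 RPM, and C1qc 32.2 and 35.3 RPM against 35.2 and 39.9 RPM.

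Marco had the widest daily range under tunicamycin. In night-fed tunicamycin livers it was 2.57, 3.03, 2.95 and 10.3 RPM at ZT 4, then 7.41, 1.61, 12.0 and 4.99 RPM at ZT 10. At ZT 16 it was 13.01, 12.1, 10.6 and 25.8 RPM, and at ZT 22 it was 26.7, 36.2, 16.9 and 19.1 RPM. Every night-fed liver at ZT 22 lay above every liver at ZT 4 and ZT 10. The fitted 24 h cosine peaked at ZT 19.3 with a log2 amplitude of 1.34 (limma adjusted p = 0.00143). With AZD8055 at dusk the amplitude was 1.28 and the peak at ZT 20.8 (limma adjusted p = 0.00267), and 1 liver at ZT 22 reached 49.4 RPM. Under arrhythmic feeding without AZD8055 the amplitude was 1.48 and the peak at ZT 18.2 (limma adjusted p = 0.0288), but this call was lost under 4 of 14 alternatives. Untreated WT livers at ZT 22 had 6.86, 1.99 and 0.78 RPM under arrhythmic feeding and 6.35, 2.64 and 6.24 RPM under night feeding. Marco was not called rhythmic in either of these untreated arms; the test of a difference in rhythm was not run between the tables.

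**Figure D5:**
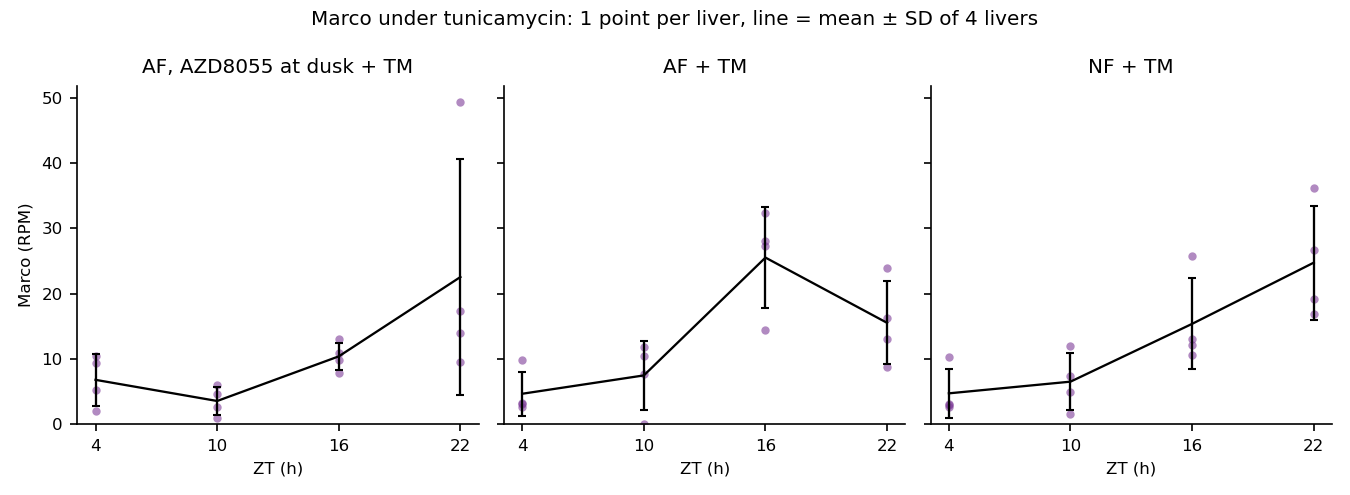
Marco (RPM) against ZT in hours in the 3 tunicamycin arms, with 1 point per liver and a line through the mean ± SD of 4 livers. Night-fed livers (NF + TM) at ZT 22 lie between 16.9 and 36.2 RPM, above the 2.57 to 10.3 RPM at ZT 4.

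Elsewhere few daily rhythms were called in these genes. Of 160 pairs of gene and arm 12 were called rhythmic (7.5%), where 14.3% of all pairs of gene and arm were, and 41 had an unadjusted p under 0.05. Beside Marco under tunicamycin, the calls were Cd5l, Clec4f and Csf1r in AC livers, C1qa, Marco and Csf1r in TSKO livers, Vsig4 in RPKO livers, and Clec4f and Csf1r under ad libitum feeding. Their amplitudes were 0.28 to 0.48 on the log2 scale, except 0.90 for Marco in TSKO, and all 9 were lost when the arms were fitted together. No gene was called rhythmic in a BMKO arm or in the WT arms under night or arrhythmic feeding outside tunicamycin. Called or not, the median amplitude over the 10 genes was 0.37 under ad libitum feeding (0.16 over all genes). In uninjected night-fed WT livers it was 0.31 (0.22 over all genes). It lay below that of all genes in WT livers given vehicle (0.15 against 0.22) and with AZD8055 at dusk (0.11 against 0.21). A difference in rhythm between the arms of a comparison was called in limma for 0 of 160 pairs of gene and comparison (4 with an unadjusted p under 0.05; 0 in edgeR), where 2.22% of all such pairs were.

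At single times 33 of 920 tests were called, where 8.06% of all such tests were. BMKO against WT without injection held 15 of its 60 (35% over all genes). Beside Vsig4 at every time, Timd4 was lower at ZT 2 (-1.94) and ZT 14 (-1.31), and Marco and Adgre1 were lower at ZT 18 and ZT 22. Timd4 at ZT 2 was kept under all 13 alternatives, but at ZT 14 it was lost without livers numbered 1, 2 or 3. Marco and Adgre1 at ZT 22 were each called under 8 of 13 alternatives and lost in edgeR. At ZT 18 Marco was lost without livers numbered 2 or 3, and Adgre1 without livers numbered 2. At ZT 6 C1qa was higher (1.26) and C1qc lower (-1.17). Both calls were lost without the libraries under 3 M reads. The C1qc call was also lost without the library that stood apart, without livers numbered 1 and in edgeR. The C1qa call was also lost without livers numbered 2 or 3. Vehicle against none in BMKO held 8 calls (18.5% over all genes), and AZD8055 at dusk 4 (12.8%). Csf1r was higher under ad libitum than night feeding at ZT 18 (1.54) and ZT 22 (1.24), where 14.4% of all tests in that comparison were called. In RPKO livers Marco was higher at ZT 22 by 2.31 on the log2 scale, where 10.3% of all tests were called. That Marco call was lost without livers numbered 1 or 2 and in 1 fit over all arms. The Csf1r call at ZT 18 was lost without livers numbered 2, and that at ZT 22 without livers numbered 1 or 2.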

How the data were processed

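Livers of 16 arms were sequenced with a 3′ end kit (Lexogen QuantSeq 3' mRNA-Seq, FWD, from TRIzol RNA of the lateral lobe, per the labels), which marks the end of each transcript. Reads were aligned with STAR 2.7.3a to mm10/GRCm38.p6, with SAMtools also named, per the submitters' processing notes; the counting tool is not named in these notes or labels. The deposited tables hold a signal per gene and library, which is the gene's reads divided by a factor that each library has. Undoing this division returned whole reads (within 0.01 read, or a relative 1e-06 for high counts) for 100% of values outside RPKO and at least 98.8% in each RPKO library. In RPKO 197 genes lay on a second step and do not enter any fit that uses RPKO, none of them a gene named here. The 3 tunicamycin arms form a separate table.

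Values were rescaled to RPM with TMM factors. The test was limma 3.58.1 with a trend on log2(RPM + 0.5), on genes averaging 1 RPM or more (12418 and 12261 genes, or 12271 with RPKO), with a mean for each arm and time, times weighted equally in a daily mean and Benjamini-Hochberg adjustment over all genes tested (threshold 0.05). The values are scaled and not raw counts, so limma was kept as the test, and fold changes on this scale understate changes of low genes. Rhythm was a joint test of a 24 h cosine and sine per arm. The SD given with an arm's mean is that between livers of 1 time, pooled over times. Alternatives were edgeR 4.0.16 (quasi-likelihood) and DESeq2 1.42.0 on recovered reads, other scaling, pseudocounts and filters, a replicate block, 1 fit over all arms, and leaving out replicates or libraries; leaving out the libraries that stood apart (residual SD over 2 times the table's median) was added after seeing the data. The test code was checked on simulated data. Livers are separate animals per the labels, which give 3 to 4 biological replicates per group.

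The 10 genes and the 15 other lists (142 genes, 116 of them in the first table) were chosen with earlier results of these data known. Named from each list were up to 3 genes with the smallest adjusted p. Versions were R 4.3.3 and python 3.11.15.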

Additional observations from a re-analysis of the deposited data

Results flagged for a closer look

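Within the groups of 4 tunicamycin livers, 10 of 120 gene and time groups held a liver far from the other 3, where chance marks about 1 in 20 groups. Under arrhythmic feeding with tunicamycin, 1 liver held 8.91 RPM of Adgre1 at ZT 10 (the others 5.39 to 5.94) and 1 held 11.5 RPM at ZT 16 (the others 6.68 to 7.08). In the same arm 1 liver held 9.76 RPM of Marco at ZT 4 (the others 2.63 to 3.20) and 1 held 34.8 RPM of C1qc at ZT 16 (the others 28.0 to 29.1). For Csf1r, 1 liver of that arm held 50.4 RPM at ZT 4 (the others 42.5 to 43.3) and 1 held 51.0 RPM at ZT 10 (the others 38.6 to 40.4). Under night feeding with tunicamycin, 1 liver held 10.3 RPM of Marco at ZT 4 (the others 2.57 to 3.03) and 1 held 25.8 RPM at ZT 16 (the others 10.6 to 13.01). There 1 liver was also low in Csf1r at ZT 4, at 28.8 RPM (the others 52.5 to 55.5). With AZD8055 under tunicamycin, 1 liver held 6.44 RPM of Timd4 at ZT 10 (the others 2.13 to 2.60).

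The difference between BMKO and WT itself differed between vehicle-injected and uninjected livers in a test of that difference (limma, adjusted p under 0.05). On the log2 scale, vehicle minus no injection, it was 1.22 for Vsig4, 0.86 for Cd5l, 0.55 for Timd4, 0.50 for C1qc, -0.63 for C1qb and -0.84 for C1qa. The values of Vsig4 and Cd5l were called under all 14 alternatives.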

How the results depend on the processing

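Of 43 calls of these genes in daily means and differences of differences, 20 were kept under every alternative run for them, 23 were lost under at least 1, 36 values not called became called under at least 1, and 0 reversed. Of 302 counts of genes called, 247 lay within 1.5 times the reported one. Under the deposited scaling the count became 0 for BMKO against WT with vehicle, 0 for vehicle in WT, 2 for RPKO, 6 for AZD8055 at dawn and 8 at dusk. In 1 fit over all arms it became 1 for ad libitum against night feeding, 3 for BMKO against WT with vehicle, 2 for vehicle in WT, 1 for TSKO, 1 for the rapamycin difference between genotypes, and 4 for rhythms. Without the libraries that stood apart it became 5 for BMKO against WT with vehicle, 0 for rapamycin in BMKO, 2 for vehicle in WT, 2 for AC against WT and 1 for the rapamycin difference between genotypes. A pseudocount of 0.1 gave 0 for BMKO against WT with vehicle, and one of 2 gave 0 for rapamycin in BMKO. edgeR gave 2 and DESeq2 gave 2 for BMKO against WT with vehicle, both gave 2 for AC against WT, and edgeR gave 0 for vehicle in WT. Without ad libitum replicate 3 at ZT 10 and ZT 14, ad libitum against night feeding gave 1. The cause was not tested.

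Leaving out each replicate number in turn gave 0 to 3 genes for arrhythmic and 1 to 4 for ad libitum against night feeding, 0 to 8 for BMKO against WT with vehicle, 1 to 2 for rapamycin in WT and 0 to 1 in BMKO. It gave 0 to 2 for vehicle in WT, 1 to 5 for TSKO, 1 to 6 for RPKO, 1 to 2 for AZD8055 at dawn, 4 to 8 at dusk and 0 to 1 under tunicamycin. It gave 2 to 4 for the genotype difference between vehicle and no injection, 7 to 13 for rhythms and 6 to 33 at single times. In no comparison did every same-numbered pair correlate over 0.1, a rule too strict to exclude weaker pairing of arms by replicate number. The medians of same-numbered pairs were -0.07 to 0.17. For rapamycin in BMKO livers the median was 0.17, against -0.14 for pairs of other numbers. For ad libitum against night feeding it was 0.14, against -0.07. It was lowest for RPKO against AC, at -0.07 against 0.03. With the replicate block the count became 2 for vehicle in WT, 2 for AC against WT and 23 for rhythms, and no other count moved by over 1.5 times. Genes of few reads, such as Timd4 and Marco, are limited by depth, most of all in the library of 0.706 M reads.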
